A study of Mus musculus with 4 samples.

Results

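The genes described here encode 9 enzymes that interconvert folate-bound one-carbon units in the cytosol and in mitochondria. They were taken by gene symbol, 9 of 22328 genes in the deposited tables, and all 9 were found. The products of 3 of them, Shmt1, Mthfd1 and Aldh1l1, act in the cytosol. The products of the other 6, Shmt2, Mthfd1l, Mthfd2, Mthfd2l, Aldh1l2 and Mtfmt, act in mitochondria. Poly(A)-selected RNA was sequenced from 4 mouse samples, 1 library per group. The F1m-CON and F1m-GCS libraries were made from hippocampi of offspring whose mothers ate a diet with 1.1 g/kg choline chloride (F1m-CON) or 5 g/kg (F1m-GCS) from embryonic day 9 to birth. Both groups of offspring then ate a basal diet, and their behaviour was tested at 2 months. The labels state neither their strain, nor the age at which tissue was taken, nor whether a library is 1 animal or a pool. The other 2 libraries came from HT22, an immortalised mouse line labelled as hippocampal neuron cells, kept in high-glucose medium with serum and given choline chloride at 5 µM (HT22-CON) or 70 µM (HT22-SUP) over 48 h.

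Folate carries single carbons, mostly taken from serine, to the enzymes that build purines, thymidylate and methionine. In many cells serine is broken down in mitochondria by serine hydroxymethyltransferase, the carbon is oxidised step by step to formate, and formate leaves for the cytosol, where it is loaded onto folate again. The cytosol holds a parallel set of enzymes that can run in either direction. Dividing cells are known for high levels of the mitochondrial arm, and in the brain Aldh1l1 is best known as an astrocyte marker.

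Reads counted in genes ranged from 13192007 in HT22-SUP to 31175015 in F1m-CON. With 1 library per group there was no spread between replicates, so none of the differences between groups could be set against one and none was tested. Ratios carry 95% intervals for counting error only, which is too narrow as an error for animals or cultures, and sequencing reads are not independent molecules. Levels of different genes are compared within a library as RPKM, reads per kilobase of coding length, scaled to 1000000 of the uniquely mapped reads. Of those mapped reads, 79.4% lay in genes in F1m-CON, 79.0% in F1m-GCS, 72.9% in HT22-CON and 63.1% in HT22-SUP. RPKM values of different libraries are therefore set side by side only as levels, and no fold difference of a gene was taken from them. Ratios between libraries use read counts scaled by the trimmed mean of M values (TMM). The hippocampus and HT22 tables were deposited separately, so levels set across them also hold any difference between how they were made, which cannot be told apart from the difference of source. HT22 cells had little of the neuronal programme that their label names: 10 neuron markers summed to 90.6 reads per 1000000 (CPM) in HT22-CON and 201 in HT22-SUP, against 11137 in F1m-CON and 11096 in F1m-GCS, with no marker at 0. The 14 proliferation genes went the other way, at 5177 and 5518 CPM in HT22-CON and HT22-SUP against 105 and 102 in the hippocampus libraries. Of the microglia markers 7 of 8 were lower in HT22 and 1 was higher, and of the endothelial markers 5 of 6 were lower and 1 was higher.

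In the deposited tables (mm10), the cytosolic genes are Shmt1 (ENSMUSG00000020534, chr11:60788104-60811718, minus strand), Mthfd1 (ENSMUSG00000021048, chr12:76255232-76319820, plus strand) and Aldh1l1 (ENSMUSG00000030088, chr6:90486427-90600203, plus strand). The mitochondrial genes are Shmt2 (ENSMUSG00000025403, chr10:127517123-127522444, minus), Mthfd1l (ENSMUSG00000040675, chr10:3973118-4167081, plus), Mthfd2 (ENSMUSG00000005667, chr6:83305691-83317606, minus), Mthfd2l (ENSMUSG00000029376, chr5:90931196-91021360, plus), Aldh1l2 (ENSMUSG00000020256, chr10:83487450-83534140, minus) and Mtfmt (ENSMUSG00000059183, chr9:65435782-65453054, plus). Each value is a sum over the whole gene, so no exon or isoform is resolved. Shmt1 overlaps Smcr8 on the opposite strand by 184 bases and Shmt2 overlaps Ndufa4l2 by 30 bases. Whether counting used strand is not given, so reads in those stretches cannot be assigned with certainty. Ndufa4l2 had 103, 66, 1 and 3 reads in F1m-CON, F1m-GCS, HT22-CON and HT22-SUP, few beside those of Shmt2. Smcr8 had 1908, 2021, 1305 and 1138 reads in the same order, more than Shmt1 in the hippocampus libraries.

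RefSeq promoter windows (GRCm38.p6) were found for 8 of the 9 genes, all but Aldh1l2. The 250 bases before the start are shown for Shmt2 and Mthfd2, the members with the highest RPKM in HT22 cells, and for Aldh1l1, which had the lowest there. Capitals mark matches, on either strand, to CCAAT (the CCAAT box), GCGCATGCG (an NRF1 element) or ACTACANTT (a ZNF143 element), which were chosen after the sequences had been read. Each is written 5′ to 3′ on the strand of its gene, and the Aldh1l1 window lies inside the interval that the tables give for the gene.
Shmt2, chr10:127522445-127522694, minus strand: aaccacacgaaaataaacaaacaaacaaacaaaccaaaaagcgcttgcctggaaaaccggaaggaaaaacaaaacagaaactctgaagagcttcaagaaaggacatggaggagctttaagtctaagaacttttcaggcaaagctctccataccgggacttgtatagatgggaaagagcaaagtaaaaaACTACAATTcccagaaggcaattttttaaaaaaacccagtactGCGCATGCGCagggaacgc
Mthfd2, chr6:83317605-83317854, minus strand: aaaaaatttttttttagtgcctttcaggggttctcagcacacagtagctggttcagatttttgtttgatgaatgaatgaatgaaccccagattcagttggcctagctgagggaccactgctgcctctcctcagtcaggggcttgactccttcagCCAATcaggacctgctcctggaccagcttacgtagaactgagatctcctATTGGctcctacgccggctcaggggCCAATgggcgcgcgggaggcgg
Aldh1l1, chr6:90550543-90550792, plus strand: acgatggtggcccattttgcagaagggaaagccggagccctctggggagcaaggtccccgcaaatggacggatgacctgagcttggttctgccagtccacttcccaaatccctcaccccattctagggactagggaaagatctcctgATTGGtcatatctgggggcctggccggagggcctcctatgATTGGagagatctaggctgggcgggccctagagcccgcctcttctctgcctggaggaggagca
The Shmt2 window holds GCGCATGCG on both strands, overlapping, between 19 and 10 bases before the start, and 1.45% of 32851 windows of this length hold that motif. It also holds ACTACANTT between 62 and 54 bases before the start, a motif in 1.42% of windows. The Mthfd2 window holds CCAAT 3 times, from 96, 47 and 22 bases before the start, and the Aldh1l1 window holds it 2 times, from 103 and 63 bases. CCAAT is in 33.8% of windows, and Shmt1 and Mthfd1 have 1 match each, so 4 of 8 members hold it. TGATGNAA, an ATF4 response element found in 3.45% of windows, and CACGTG, the E-box, found in 6.02%, matched in 0 of 8 members. The GC content was 40.8% for Shmt2, 52.4% for Mthfd2 and 59.6% for Aldh1l1, against a median of 52.4% over all windows. A match is a description of letters and not a binding site.

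In the hippocampus the highest of the 9 were cytosolic, and in HT22 cells they were mitochondrial. Mthfd1 led in both hippocampus libraries, at 15.3 RPKM in F1m-CON and 15.6 in F1m-GCS, with Aldh1l1 next at 15.0 and 13.6. Shmt2 led in HT22, at 152 RPKM in HT22-CON and 143 in HT22-SUP, with Mthfd2 next at 101 and 86.6. Aldh1l1 was the lowest of the 9 in HT22 and Aldh1l2 the lowest in the hippocampus. The order was close in the tissue. Mthfd1, Aldh1l1 and Shmt2 had overlapping intervals in F1m-CON but not in F1m-GCS. Shmt2 and Mtfmt overlapped in both hippocampus libraries, as did Mthfd1l, Mthfd2l and Shmt1, which Aldh1l2 joined in F1m-GCS. Among protein-coding genes with reads, Shmt2 stood at RPKM percentile 55.2 in F1m-CON and 50.6 in F1m-GCS, and at 93.7 and 94.6 in HT22-CON and HT22-SUP.

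**Figure D1:**
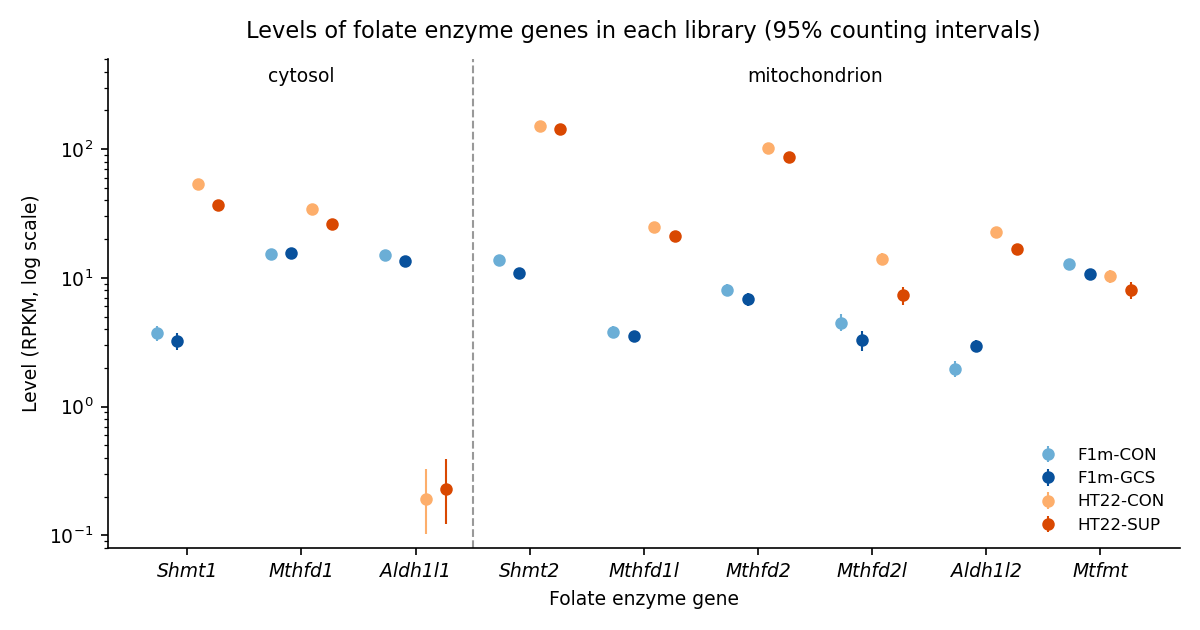
RPKM on a log scale for each of the 9 genes, with the cytosolic genes left of the dashed line and 1 point per library; vertical lines are 95% counting intervals, hidden by the point where they are narrow. Aldh1l1 follows Mthfd1 at the top in the hippocampus libraries (15.0 and 13.6 RPKM) and is the lowest of the 9 in HT22 (0.191 and 0.230), where Shmt2 and Mthfd2 hold the top places.

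The mitochondrial genes held 42.4% of the reads of all 9 genes in F1m-CON (Wilson 95% interval 41.2 to 43.7) and 40.5% in F1m-GCS (39.2 to 41.8). In HT22-CON they held 74.3% (73.6 to 74.9) and in HT22-SUP 77.3% (76.6 to 78.1). Weighted per length, as summed RPKM, the mitochondrial share was 56.9% and 54.1% in the hippocampus libraries and 78.8% and 81.7% in HT22. Both measures were higher in either HT22 library than in either hippocampus library. Aldh1l1 alone made up a large part of that difference. It held 15.0 and 13.6 of the cytosolic RPKM in F1m-CON and F1m-GCS, but 0.191 and 0.230 in HT22-CON and HT22-SUP. The share without Aldh1l1 was not taken, so the size of the shift over the other genes is not given here. Summed mitochondrial RPKM was 45.0 and 38.2 in F1m-CON and F1m-GCS, next to a cytosolic sum of 34.0 and 32.4. In HT22-CON and HT22-SUP the sums were 326 and 283 for the mitochondrial genes and 87.8 and 63.3 for the cytosolic ones.

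The first step of the pathway, from serine and tetrahydrofolate to glycine, did not follow that shift. Shmt1, the cytosolic serine hydroxymethyltransferase, had 210 and 177 reads in F1m-CON and F1m-GCS and 1923 and 1112 in HT22-CON and HT22-SUP. Shmt2, its mitochondrial counterpart, had 820 and 637 reads in the hippocampus libraries and 5791 and 4526 in HT22. Both genes were far higher in both HT22 libraries although these were sequenced less deeply, and the sources did not overlap. The mean TMM-scaled log2 ratio of HT22 to hippocampus was 3.76 for Shmt1 (3.51 to 4.01 over the 4 library pairs), a 13.5-fold difference. For Shmt2 it was 3.67 (3.45 to 3.89), 12.7-fold. The RPKM ratio of Shmt2 to Shmt1 overlapped between the sources: 3.70 (3.18 to 4.33) in F1m-CON, 3.41 (2.89 to 4.06) in F1m-GCS, 2.86 (2.71 to 3.01) in HT22-CON and 3.86 (3.61 to 4.13) in HT22-SUP. The 2 HT22 values lay on either side of the hippocampus values. Here and below, the levels are those of a whole sample, in which fewer cells of a type and less RNA per cell cannot be told apart.

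**Figure D2:**
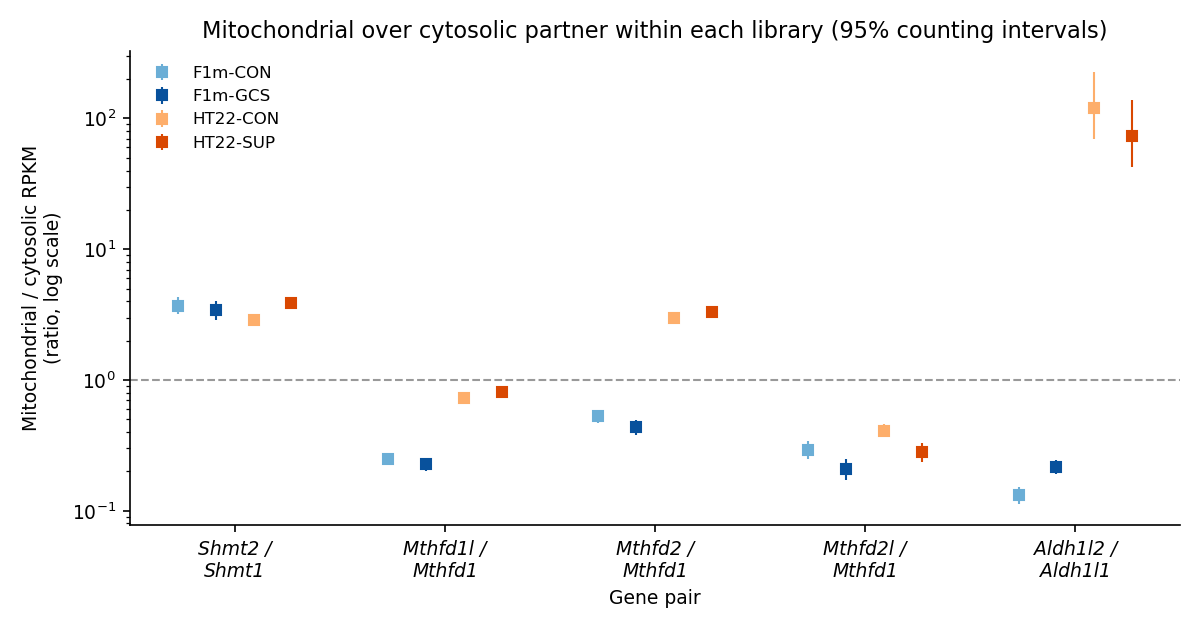
RPKM of each mitochondrial gene divided by that of its cytosolic partner within a library, on a log scale, with 1 square per library, 95% counting intervals and a dashed line at equal levels. The ratio of Mthfd2 to Mthfd1 lies below the line in hippocampus (0.527 and 0.435) and above it in HT22 (2.96 and 3.33), and that of Aldh1l2 to Aldh1l1 crosses it too, while Shmt2 to Shmt1 stays between 2.86 and 3.86.

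For the middle steps, dehydrogenase, cyclohydrolase and synthetase, the mitochondrial genes Mthfd2 and Mthfd1l were further above hippocampus in HT22 than cytosolic Mthfd1, and mitochondrial Mthfd2l was not in every library pair. Mthfd1, a cytosolic protein that carries all of these activities, had 1686 and 1678 reads in F1m-CON and F1m-GCS and 2420 and 1527 in HT22-CON and HT22-SUP. Its log2 ratio of HT22 to hippocampus was 1.04 (0.93 to 1.15), 2.06-fold, and not all 4 library pairs were 2-fold apart. With the medians of genes of like coding length and GC content subtracted it was 1.58 (1.47 to 1.69), and all 4 pairs were. Mthfd2, the mitochondrial methylene-tetrahydrofolate dehydrogenase and cyclohydrolase known for high levels in embryonic and dividing cells, had 333 and 274 reads in the hippocampus libraries and 2684 and 1905 in HT22. Its log2 ratio was 3.74 (3.62 to 3.87), 13.4-fold. Mthfd1l, the mitochondrial synthetase that releases formate, had 440 and 397 reads in the hippocampus and 1836 and 1291 in HT22, with a log2 ratio of 2.73 (2.66 to 2.79), 6.61-fold. Both mitochondrial genes were higher in both HT22 libraries, and Mthfd1 per scaled read as well, by less.

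The order of Mthfd2 and Mthfd1 thus turned over between the sources. Mthfd2 stood at 0.527 (0.467 to 0.593) of the RPKM of Mthfd1 in F1m-CON and at 0.435 (0.382 to 0.495) in F1m-GCS. In HT22-CON it was 2.96 times higher than Mthfd1 (2.80 to 3.13) and in HT22-SUP 3.33 times (3.11 to 3.56). The ratio was 6.55-fold larger in HT22 than in hippocampus, from 5.62 to 7.64 over the library pairs. This value needs no scaling of libraries but is not corrected for coding length and GC content. With that correction the log2 ratio of HT22 to hippocampus was 3.65 (3.53 to 3.78) for Mthfd2 and 1.58 for Mthfd1. The 2 genes then lay closer together than without it. Mthfd1l stayed below Mthfd1 in all 4 libraries, at 0.2498, 0.226, 0.726 and 0.809 of its RPKM in F1m-CON, F1m-GCS, HT22-CON and HT22-SUP, 3.22-fold nearer in HT22 (2.91 to 3.57).

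Mthfd2l, a paralog of Mthfd2 with the same activities that is known from adult tissues, differed less. It had 179 and 127 reads in F1m-CON and F1m-GCS and 359 and 155 in HT22-CON and HT22-SUP. The log2 ratio of HT22 to hippocampus was 1.48, with a wide range over library pairs (0.90 to 2.06), so it did not meet the 2-fold rule. Its RPKM ratio to Mthfd1 was 0.293 and 0.209 in hippocampus and 0.410 and 0.280 in HT22, and these overlapped between the sources. Mthfd2 was 1.797 (1.49 to 2.17) and 2.08 (1.68 to 2.59) times Mthfd2l in the RPKM of the hippocampus libraries. In HT22-CON it was 7.22 times (6.47 to 8.08) and in HT22-SUP 11.9 times (10.1 to 14.1). Mthfd2 was thus the higher of the pair in all 4 libraries, by more in HT22.

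The formyl-tetrahydrofolate dehydrogenases, which oxidise the one-carbon unit to carbon dioxide and return free tetrahydrofolate, showed the widest exchange. Cytosolic Aldh1l1 had 1595 and 1409 reads in F1m-CON and F1m-GCS and 13 in each HT22 library. Mitochondrial Aldh1l2 had 214 and 313 reads in the hippocampus libraries and 1593 and 970 in HT22. The sources did not overlap for either gene, and the directions were opposite. Aldh1l1 was 57.6-fold lower in HT22 (log2 ratio -5.85, -6.13 to -5.57), and Aldh1l2 was 8.59-fold higher (3.10, 2.69 to 3.51). Aldh1l2 stood at 0.131 (0.113 to 0.151) and 0.217 (0.191 to 0.246) of the RPKM of Aldh1l1 in the hippocampus libraries. In HT22-CON it was 120 times Aldh1l1 (69.8 to 225) and in HT22-SUP 72.9 times (42.4 to 137), with 13 reads setting the precision of each.

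Most astrocyte markers were lower in HT22 with Aldh1l1. The 10 markers summed to 5240 and 5299 CPM in F1m-CON and F1m-GCS and to 370 and 420 in HT22-CON and HT22-SUP, with none at 0. Of these, 9 of 10 were lower in HT22 and Sox9 was not, at 124% and 144% of its hippocampus level in HT22-CON and HT22-SUP. The Aldh1l1 level in HT22 was 1.32% and 1.85% of that in hippocampus. Gfap, an astrocyte filament protein, was at 0.0853% and 0.209%, Aqp4, a water channel, at 0.287% and 1.09%, and the glutamate transporter Slc1a2 at 1.92% and 4.63%. Another glutamate transporter, Slc1a3, kept 22.2% and 18.6% and the gap junction gene Gja1 38.1% and 36.3%, well above the share of Aldh1l1. The part of astrocytes in the Aldh1l1 difference was not tested.

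Mtfmt, which uses formyl-tetrahydrofolate to formylate the initiator methionyl-tRNA of mitochondria, was the only mitochondrial member with a ratio of HT22 to hippocampus below 0. It had 587 and 476 reads in F1m-CON and F1m-GCS and 300 and 194 in HT22-CON and HT22-SUP. Its log2 ratio of HT22 to hippocampus was -0.28 (-0.48 to -0.08), within 2-fold in all 4 pairs. Of the genes of mitochondrial translation initiation, 4 of 5 were measured and all 4 had ratios above 0. By the 2-fold rule 1 was higher, Metap1d, a mitochondrial methionine aminopeptidase, at 1.16, and their median was 0.30.

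In all, 5 of the 9 genes were at least 2-fold higher in HT22 in all 4 library pairs, where 24.3% of 14012 measured genes were. By the same rule 1 of 9 was lower, where 34.2% of genes were. A measured gene had at least 50 reads in 1 of the 4 libraries, which all 9 passed, Aldh1l1 through the hippocampus alone. The median of the 9 log2 ratios was 2.73, and that of all measured genes was -0.13. Without HT22-SUP, or with total counts as the scaling, 7 of 9 were higher, Mthfd1 and Mthfd2l being added.

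Neighbouring steps of the pathway were read from lists of genes. All 3 genes that make serine were higher in HT22: Phgdh, which starts the pathway, with a log2 ratio of 2.26 (2.05 to 2.48), Psat1 with 2.14 (2.02 to 2.26) and Psph with 1.28 (1.13 to 1.42). Of the listed genes of purine and thymidylate synthesis, not all of which use a one-carbon unit, 8 of 9 were higher and 0 lower, with a median of 2.15. Tk1, thymidine kinase, had 6.35, thymidylate synthase Tyms 5.91, Dut 2.60 and Adsl 2.17. Tk1 had only 31 and 46 reads in F1m-CON and F1m-GCS, so it passed the read minimum through HT22 alone. All 14 proliferation genes were higher, with a median of 6.19, led by Top2a at 9.10 and Ccnb1 at 7.99. Ccnb1 had only 12 and 2 reads in F1m-CON and F1m-GCS, so the size of its ratio is uncertain. Cdk1 had 25 and 38 reads there and Birc5 30 and 40. Like Ccnb1, they passed the read minimum through HT22 alone, which favours a call as higher. Among genes known to follow the stress factor ATF4, of which the mitochondrial folate genes are known as targets, 8 of 11 measured were higher and 0 lower, with a median of 2.02. Trib3 had 5.58, from only 17 and 18 reads in the hippocampus libraries, Nupr1 3.30, Chac1 2.42 and Atf5 2.38, and Atf4 itself 2.02. Slc7a11 was the 1 with a ratio below 0, at -0.75. Atf3, not measured, had 32 and 18 reads in F1m-CON and F1m-GCS and 0 in both HT22 libraries.

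The remaining folate genes were mixed. Of 11 measured of 13 other interconversion genes, 3 were higher and 2 lower, with a median of 0.51. Mthfs, which returns a storage form of folate to the active pool, was among those higher with 1.98 (1.82 to 2.14), from 76 and 62 reads in the hippocampus libraries to 177 and 134 in HT22. Gldc and Amt, which belong to the glycine cleavage system, were lower with -5.42 (-5.86 to -4.98) and -3.01 (-3.11 to -2.91). Gcsh and Dld, the other proteins of that system, had 0.50 (0.35 to 0.65) and 0.51 (0.40 to 0.63) and met neither rule. Of 6 measured of 7 transport and storage genes, 2 were higher and 2 lower, with a median of -0.12. Those higher were Fpgs, which adds glutamates that keep folate in the cell, at 1.79 and Slc25a32, the mitochondrial folate carrier, at 1.74. Those lower were the proton-coupled folate transporter Slc46a1 at -2.17 and the folate receptor Folr1 at -4.75. Folr1 had 12 and 5 reads in HT22-CON and HT22-SUP, and Gldc 18 and 23. Both passed the read minimum through the hippocampus alone, which favours a call as lower.

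**Figure D3:**
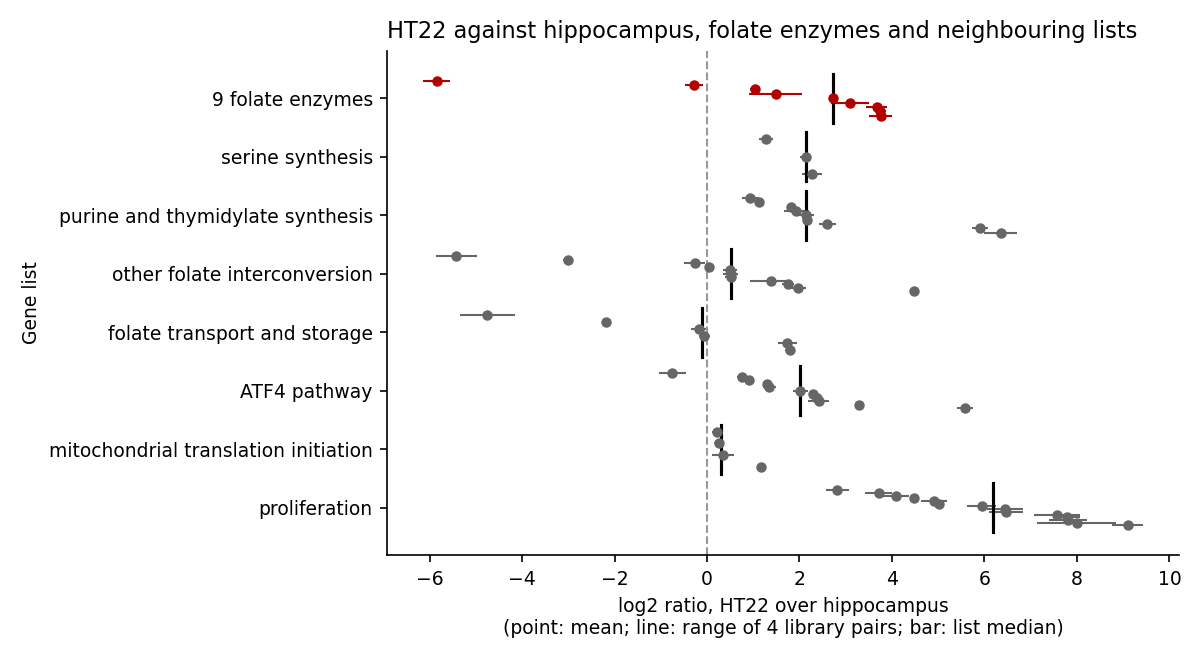
Log2 ratio of HT22 to hippocampus for the 9 folate enzymes (red) and the genes of 7 lists (grey), with the mean as a point, the range over 4 library pairs as a line and the median of each list as a black bar. The folate enzymes run from Aldh1l1 at -5.85 to Shmt1 at 3.76, with 2 of 9 points below 0, and no point of the serine, purine and thymidylate or proliferation lists lies below 0.

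Among the genes with the pattern over the 4 libraries most like Shmt2 were Rps27l and Rpl6, at root mean square differences of 0.0307 and 0.0443 in centred log2 CPM, over 7586 genes with at least 200 reads in each library. For Mthfd2 they were Rpl6, Zrsr2 and Tgfbr3, at 0.0350, 0.0650 and 0.0651. For Aldh1l2 they were Irf1, Zfp948 and Dse, at 0.0817, 0.0864 and 0.113. With 4 libraries from 2 sources, likeness mainly measures an equal difference between HT22 and hippocampus. The ribosomal protein genes have close copies in the genome among which counting could split reads, so their values are uncertain.

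Within the hippocampus the folate enzymes differed little between F1m-GCS and F1m-CON, and Aldh1l2 was the exception. It had 214 reads in F1m-CON and 313 in F1m-GCS, while the other 8 members had fewer reads in F1m-GCS. Its log2 ratio of F1m-GCS to F1m-CON was 0.60 (0.35 to 0.86), 1.51-fold. It was the 1 of 9 members higher by at least 1.5-fold with an interval above 0, as were 1.8% of 13392 measured genes, and its ratio lay at percentile 98.3 of them. With the median of genes of like coding length and GC content subtracted, it was 0.54 (0.29 to 0.80), under 1.5-fold. It was 0.58 both with a prior count of 10 and with scaling by uniquely mapped reads, also just under the threshold. No member was lower by that rule, as were 0.904% of genes. The authors' deposited table gives Aldh1l2 a log2 fold change of 0.60 and a false discovery rate of 9.06e-05. The same table gives 0.00144 for Shmt2 at a log2 fold change of -0.31 and 0.0497 for Mtfmt at -0.25. No replicate libraries stand behind these rates.

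The other members lay within 1.5-fold. Shmt2 had a log2 ratio of -0.31 (-0.46 to -0.16), Mtfmt -0.25 (-0.43 to -0.07), Mthfd2l -0.44 (-0.78 to -0.10) and Aldh1l1 -0.12 (-0.23 to -0.02), with intervals below 0. The intervals of Shmt1 at -0.19 (-0.49 to 0.10), Mthfd2 at -0.23 (-0.46 to 0.01), Mthfd1l at -0.09 (-0.29 to 0.10) and Mthfd1 at 0.05 (-0.05 to 0.15) held 0. In all 7 of 9 ratios were below 0, with a median of -0.19, and the median of all measured genes was -0.00417. The RPKM ratio of Aldh1l2 to Aldh1l1 was 1.66-fold larger in F1m-GCS (1.37 to 2.01). That of Mthfd2l to Mthfd1 was smaller (0.713-fold, 0.558 to 0.909), as was that of Mthfd2 to Mthfd1 (0.827-fold, 0.692 to 0.987).

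No gene of the serine, purine and thymidylate, ATF4, translation initiation, transport, interconversion or proliferation lists was called in the hippocampus pair. Their medians ran from -0.15 for serine synthesis to 0.10 for translation initiation. Slc25a32, the mitochondrial folate carrier, had the highest ratio of the transport list, 0.39 (0.16 to 0.63), and Folr1 the lowest, -0.52 (-0.72 to -0.33). Folr1 is also 1 of the 7 choroid plexus markers. All 7, Folr1 included, were below 0, with 3 lower by 1.5-fold and a median of -0.52. Those markers, again with Folr1, summed to 1951 CPM in F1m-CON and 1669 in F1m-GCS. The part of choroid plexus in the Folr1 difference was not tested. Astrocyte markers, beside Aldh1l1, had a median of -0.09 with none of 10 called. Neuron and oligodendrocyte markers had medians of -0.02 and -0.09, and microglia and endothelial markers -0.11 and 0.04, with none called.

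**Figure D4:**
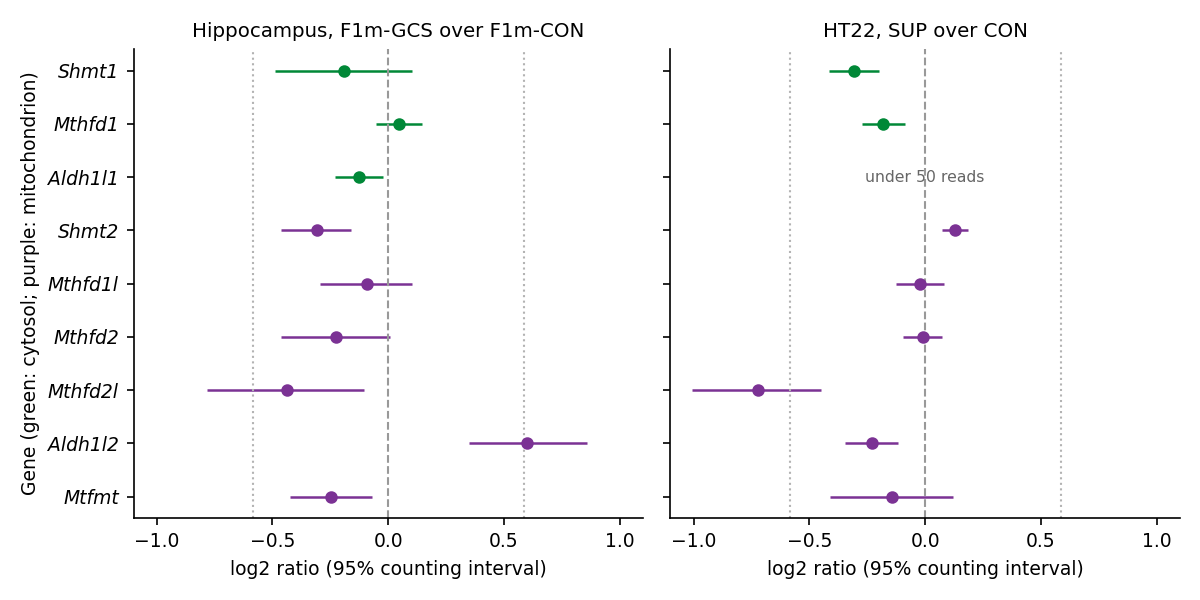
Log2 ratios of F1m-GCS to F1m-CON (left) and of HT22-SUP to HT22-CON (right) for each gene, with 95% counting intervals, dotted lines at 1.5-fold and a dashed line at no difference. Aldh1l2 at 0.60 in hippocampus and Mthfd2l at -0.72 in HT22 are the points past a dotted line, and Aldh1l1 had under 50 reads in HT22.

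In HT22 cells given more choline chloride, Mthfd2l was lower and the other measured members lay within 1.5-fold. Mthfd2l had 359 reads in HT22-CON and 155 in HT22-SUP, a log2 ratio of -0.72 (-1.01 to -0.45) or 1.65-fold lower, at percentile 1.47 of measured genes. It was the 1 of 8 measured members that was lower by at least 1.5-fold, as were 2.89% of 10854 genes, and 0 of 8 were higher, as were 5.13%. With the length and GC correction it was -0.56 (-0.85 to -0.29) and under 1.5-fold. Aldh1l1 was not measured, with 13 reads in each library.

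Among the rest, Mthfd2 had a log2 ratio of -0.01 (-0.10 to 0.07) and Mthfd1l -0.02 (-0.13 to 0.08). For Mthfd2 it was 0.13 (0.04 to 0.21) with the length and GC correction. Scaled by uniquely mapped reads it was -0.23 (-0.31 to -0.14), so the direction of Mthfd2 depended on the processing. Shmt1 had -0.31 (-0.41 to -0.20), Aldh1l2 -0.23 (-0.35 to -0.12), Mthfd1 -0.18 (-0.27 to -0.09) and Mtfmt -0.14 (-0.41 to 0.12). Shmt2 had 0.13 (0.07 to 0.19) with TMM scaling and -0.09 when scaled by uniquely mapped reads, so its direction depended on the scaling. That scaling, added after the data were seen, moved the median of all genes from -0.05 to -0.27 and the share of higher genes among those called from 63.9% to 23.6%. Ratios within a library do not depend on it. The RPKM ratio of Shmt2 to Shmt1 was 1.35-fold larger in HT22-SUP (1.24 to 1.47), that of Mthfd1l to Mthfd1 1.11-fold (1.01 to 1.23), that of Mthfd2 to Mthfd1 1.12-fold (1.03 to 1.23) and that of Mthfd2 to Mthfd2l 1.64-fold (1.34 to 2.02). The ratio of Mthfd2l to Mthfd1 was smaller, 0.684-fold (0.557 to 0.838).

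Of the neighbouring lists, Mtr, methionine synthase, was the 1 interconversion gene of 10 measured that was higher in HT22-SUP, at 0.77 (0.59 to 0.95). Mki67 was the 1 of 14 proliferation genes, at 0.60 (0.56 to 0.63), and the median of that list was -0.19. With the length and GC correction both were under 1.5-fold, Mtr at 0.41 (0.23 to 0.59) and Mki67 at 0.24 (0.20 to 0.27). No gene of the serine, purine and thymidylate, transport, ATF4 or translation initiation lists was called. Of the neuron markers measured, 7 of 8 were higher and 1 lower in HT22-SUP, with a median of 1.34, led by Nefl at 1.76 and Stmn2 at 1.61. In HT22-CON and HT22-SUP, Nefl had only 19 and 50 reads and Stmn2 31 and 71. Both passed the read minimum through HT22-SUP alone, which favours a call as higher. The oligodendrocyte marker Mbp at 0.97 and 2 of 5 astrocyte markers, Slc1a2 at 1.27 and Aldoc at 0.89, were higher as well. The 8 oligodendrocyte markers summed to 10.1 CPM in HT22-CON, with Cldn11 at 0, and to 21.9 in HT22-SUP, with Ermn at 0, against 7066 and 6771 in F1m-CON and F1m-GCS. A like rise was seen over 689 genes with at least 50 CPM in hippocampus and a level more than 100 times lower in HT22. Summed, they stood at 0.321% of their hippocampus level in HT22-CON and at 0.768% in HT22-SUP. The part of these genes and markers in the member ratios was not tested. None of the microglia, endothelial or choroid plexus markers measured was called.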

How the data were processed

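Raw read counts per gene for 4 libraries are the authors' deposited values, per the file headers. RPKM values are the authors', scaled to coding length in kilobases and to 1000000 of the uniquely mapped reads, per the file headers, and equalled values recomputed from the counts. The deposited log2 fold changes, p-values and false discovery rates are the authors'. After the median difference was subtracted, the log2 fold changes for the hippocampus differed from the count ratios by at most 6.63e-05 over 6547 genes, and those for HT22 by up to 0.787 over 3761, so the latter are not used. Trim Galore, TopHat2, HTSeq, edgeR, CASAVA 1.8 and mm10 are named per the submitters' processing notes.

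Log2 ratios used TMM factors (edgeR 4.0.16, R 4.3.3), a prior count of 2, genes with at least 50 reads in 1 library, and exact conditional (Clopper-Pearson) 95% intervals. A pair of libraries called a gene at 1.5-fold with an interval excluding 0, and HT22 against hippocampus at 2-fold in all 4 library pairs. With 1 library per group no test was made, and HT22 against hippocampus was not tested because the libraries of a source differ in treatment and lie in separate tables. Tested on simulated data, 25 of 25 genes raised 2-fold were called in each pair, and 9 of 25 (hippocampus, 13291 genes) and 16 of 25 (HT22, 10748 genes) raised 1.5-fold. Groups came from source names and, for HT22, titles. GC was taken from GENCODE M21 transcripts, promoters from RefSeq.

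The members, the 13 lists and the rules were chosen with earlier results of these data known. Named genes are the 9 members, up to 4 genes per list with the largest log2 ratios, and the 3 genes most like Shmt2, Mthfd2 and Aldh1l2; a few of these are not reported here. Others (Atf4, Slc7a11, Atf3, Gcsh, Dld, Sox9, Gfap, Aqp4, Slc1a2, Slc1a3, Gja1, Cldn11, Ermn, Smcr8, Ndufa4l2) were named after their values were seen. Alternatives were total counts, size factors of DESeq2 1.42.0, other prior counts (0.25, 10), other read minimums (10, 200), folds of 1.25 and 4, a length and GC correction and, added later, uniquely mapped totals and leaving out libraries from partner ratios.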

Additional observations from a re-analysis of the deposited data

How the results depend on the processing

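No paired analysis was possible because each group held 1 library. In F1m-GCS against F1m-CON, 0 members instead of 1 were higher with a prior count of 10, with the length and GC correction, and with uniquely mapped totals (added after the data were seen), and 1 was lower at the lower fold threshold. In HT22-SUP against HT22-CON, 0 members were lower with the length and GC correction. From 5 to 7 members were higher in HT22 than in hippocampus over the alternatives, and 1 was lower in each of them. The mitochondrial share of member reads was 36.3% in F1m-CON and 34.9% in F1m-GCS without Mtfmt. As a share of summed RPKM it was 56.9% in F1m-CON, 54.1% in F1m-GCS, 78.8% in HT22-CON and 81.7% in HT22-SUP. Single member ratios stayed within their interval or range in 71 of 71 alternatives for F1m-GCS, 56 of 64 for HT22-SUP and 97 of 108 for HT22 against hippocampus, and none that was called changed sign. Many of these alternatives could not fall outside, so the counts overstate stability. Other read minimums change no ratio that is kept, and leaving out a library averages over library pairs that themselves set the range. With a minimum of 200 reads Mthfd2l gave no value in hippocampus. The 13 reads of Aldh1l1 in each HT22 library limit every ratio that holds it: at a prior count of 10 its log2 ratio to hippocampus was -5.38.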
